A study of Homo sapiens with 15 samples.

Results

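The EGR, NR4A and IER early genes were 9 of the 62700 rows of each count table: EGR1, EGR2 and EGR3, NR4A1, NR4A2 and NR4A3, IER2 and IER3, and SRF. They were taken by gene symbol, as immediate early genes outside the AP-1 family together with the factor SRF, and not by any measured value. All 9 passed the filter on low counts in both tables. All 9 are annotated as protein coding genes on GRCh38 in GENCODE 44. On the plus strand lie EGR1 (ENSG00000120738.8) at chr5:138465479-138469303, NR4A1 (ENSG00000123358.20) at chr12:52022832-52059507, NR4A3 (ENSG00000119508.18) at chr9:99821855-99866891, IER2 (ENSG00000160888.7) at chr19:13150411-13154911 and SRF (ENSG00000112658.8) at chr6:43171269-43181506. On the minus strand lie EGR2 (ENSG00000122877.18) at chr10:62811996-62819167, EGR3 (ENSG00000179388.9) at chr8:22687659-22693480, NR4A2 (ENSG00000153234.16) at chr2:156324437-156342348 and IER3 (ENSG00000137331.12) at chr6:30743199-30744548. EGR2 shares 3.91% of its exon bases with exons of ENSG00000289487 on its own strand, so a small part of its counts is uncertain.

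RNA was sequenced from 15 libraries of 143B, an established human osteosarcoma cell line. There were 5 conditions with 3 libraries each. Non-OSCs were cells in adherent culture in medium with serum, and OSCs (osteosarcoma stem cells) were cells grown as spheres in tumorsphere medium, which carries EGF and basic FGF. The labels give the genotype WT for both. The other conditions, shCtrl, shPDK1#1 and shPDK1#2, were 143B cells infected with lentiviral hairpin vectors and kept as spheroids. Both PDK1 hairpins target the same gene, pyruvate dehydrogenase kinase 1, and shCtrl is also labelled WT. All libraries thus share 1 cell line, and nothing in the labels says whether the 3 libraries of a condition came from separate cultures, so each p-value measures the spread between these libraries, which may be technical. The tables name the adherent columns 2D and the sphere columns 3D, which were read as non-OSC and OSC. Growth format and medium changed together between non-OSCs and OSCs and cannot be told apart.

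Summed counts ranged from 7992534 to 10495088 per library in the OSC table and from 8073103 to 11256578 in the hairpin table. Of 8 osteoblast lineage markers, RUNX2, COL1A1, SPP1 and ALPL were measured in every library, COL1A2 reached 16 counts at most, BGLAP 7 and SP7 1, and IBSP was at 0 in all 15 libraries. CPM are counts per 1000000 of the normalised library size. Of 12 markers of other cell types, NKG7 was at 0 in all 15 libraries and PTPRC reached 2 counts at most. The summed level of those 12 was 38.2 to 41.0 CPM in non-OSCs, 105.5 to 105.8 in OSCs, 76.3 to 81.9 in shCtrl, 55.8 to 64.6 in shPDK1#1 and 47.3 to 47.9 in shPDK1#2. In OSCs the matrix metalloproteinase gene MMP9 alone gave 68.9 to 73.0 CPM of it. Of the 5 of these markers tested there, 3 were higher in OSCs than in non-OSCs and 1 was lower. MMP9 averaged 26.7 CPM in non-OSCs and 70.3 in OSCs, CTSK 1.82 and 8.17, and ACTA2 4.37 and 21.6. CD14 was the lower one, at 2.19 and 0.38. The lineage markers moved with the conditions as well. RUNX2 averaged 37.7 CPM in non-OSCs and 17.3 in OSCs, COL1A1 417 and 1056, and SPP1 100.1 and 512. SPP1 averaged 1449 CPM in shCtrl and 2392 in shPDK1#2, and COL1A1 912 and 1303. The part of all these markers in the results was not tested.

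Immediate early genes are transcribed within minutes of a growth factor, serum, calcium or stress signal, from factors that the cell already holds. One route runs from growth factor receptors through the ERK kinases to the ternary complex factors, such as ELK1, which sit with SRF on CArG boxes in front of genes such as EGR1. A second route, through CREB and MEF2 proteins, is known for the NR4A genes. The EGR proteins are zinc finger transcription factors, the NR4A proteins are nuclear receptors that act without a known physiological ligand, and IER2 and IER3 are short proteins, of which IER3 takes part in survival signalling.

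RefSeq promoter windows (GRCh38.p14) matched 6 of the 9 members by symbol: EGR1, EGR2, NR4A1, NR4A3, IER2 and SRF. NR4A2, IER3 and EGR3 had no window. The 250 bases before each start were searched on both strands. The motifs were a CArG box (CC, then 6 A or T, then GG) and CCGGAA, an extended form of the ETS core, called ETS core here. Also searched were the cyclic AMP response element TGACGTCA and its part TGACG. The EGR site GCGNGGGCG, the NR4A site AAAGGTCA and the AP-1 site TGANTCA completed the set. A CArG box was found for 3 of the 6 members, EGR1, EGR2 and SRF, and for 1.44% of all 27305 genes with a window. By windows, it was in 3 of the 10 that these members have and in 1.16% of all 35116. EGR1 held 2, at 105 to 96 and 83 to 74 bases before the start. SRF held 2, at 30 to 21 and 10 to 1 bases before its first start, next to an ETS core at 70 to 65 bases and an EGR site at 49 to 41 bases. EGR2 held 1, at 71 to 62 bases before its start 3. The window of NR4A3 held no CArG box and 4 matches to TGACG, a motif in front of 5 of the 6 members and of 24.9% of all genes (21.2% of windows). These stretches are shown because they hold the motifs named for the serum and cyclic AMP routes. Capitals mark CArG boxes in EGR1, SRF and EGR2, and TGACG on either strand in NR4A3. All run 5′ to 3′ along the gene and hold no base that GENCODE places in an exon, so the match of NR4A3 at 25 to 21 bases before its RefSeq start is not printed. EGR1 is on the plus strand at chr5:138465229-138465478, SRF on the plus strand at chr6:43171019-43171268, EGR2 on the minus strand at chr10:62816374-62816616 and NR4A3 on the plus strand at chr9:99821635-99821854. The EGR2 stretch lies before an internal start, inside the gene and downstream of the first exons of longer transcripts.
EGR1: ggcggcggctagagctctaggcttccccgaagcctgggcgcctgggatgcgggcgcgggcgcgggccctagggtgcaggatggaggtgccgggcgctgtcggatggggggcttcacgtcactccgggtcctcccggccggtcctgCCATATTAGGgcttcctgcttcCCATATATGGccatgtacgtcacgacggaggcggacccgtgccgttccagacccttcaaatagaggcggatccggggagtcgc
SRF: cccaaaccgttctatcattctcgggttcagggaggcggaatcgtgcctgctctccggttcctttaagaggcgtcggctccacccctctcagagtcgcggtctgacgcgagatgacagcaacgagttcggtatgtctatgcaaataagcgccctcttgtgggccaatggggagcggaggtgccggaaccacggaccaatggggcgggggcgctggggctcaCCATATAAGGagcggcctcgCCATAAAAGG
EGR2: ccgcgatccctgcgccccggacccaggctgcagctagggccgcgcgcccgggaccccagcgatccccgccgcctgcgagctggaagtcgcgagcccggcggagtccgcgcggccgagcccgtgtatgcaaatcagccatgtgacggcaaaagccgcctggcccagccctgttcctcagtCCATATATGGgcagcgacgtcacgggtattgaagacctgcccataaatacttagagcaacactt
NR4A3: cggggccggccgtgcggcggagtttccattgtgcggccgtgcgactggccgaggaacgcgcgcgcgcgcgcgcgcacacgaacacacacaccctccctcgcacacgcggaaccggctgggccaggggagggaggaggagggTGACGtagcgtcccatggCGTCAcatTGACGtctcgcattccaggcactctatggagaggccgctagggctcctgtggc

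The ETS core as searched, CCGGAA, stood in front of 17.2% of all genes (14.5% of windows) and of 3 of the 6 members, NR4A1, IER2 and SRF. Shorter and other forms of the ETS core were not searched. A member without a match, such as EGR1, may therefore still hold an ETS site. The EGR site stood in front of 10.1% of genes (8.41% of windows) and of EGR1 and SRF. The whole cyclic AMP response element (2.03% of genes), the NR4A site (1.29%) and the AP-1 site (8.06%) had 0 matches in front of the 6 members. A match is a run of letters and not a measured binding site.

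**Figure D1:**
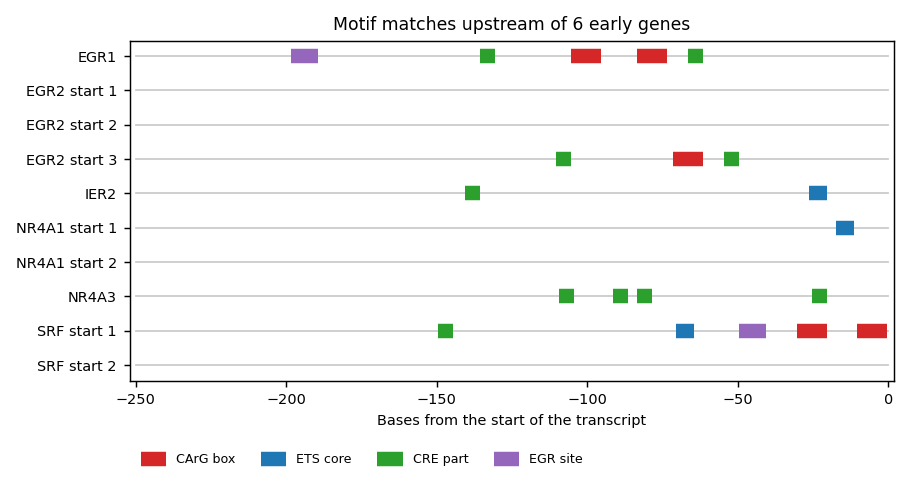
Motif matches in the 250 bases before each RefSeq start of 6 members. The horizontal axis gives bases from the start of the transcript, each line is 1 window and each block 1 match. EGR1 and the first start of SRF carry 2 CArG boxes each, and NR4A3 carries 4 TGACG matches (CRE part).

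Levels per kilobase of the canonical transcript differed widely among the members. In OSCs, IER3 stood at 1161 ± 44.1 CPM per kb, ahead of IER2 at 124 ± 5.85 and EGR1 at 57.8 ± 3.07 (SD, n = 3 each). NR4A1 followed at 21.6 ± 1.27 and SRF at 21.3 ± 1.38, and their libraries overlapped. EGR3 at 6.38 ± 0.570, NR4A2 at 5.36 ± 0.768 and EGR2 at 5.22 ± 0.153 also overlapped with their neighbours, and NR4A3 was lowest at 2.02 ± 0.118 CPM per kb. In non-OSCs, IER3 at 375 ± 16.6 and IER2 at 122 ± 6.29 CPM per kb again led, but SRF at 24.7 ± 1.93 stood above EGR1 at 21.2 ± 0.837. NR4A2 at 0.340 ± 0.103 and NR4A3 at 0.284 ± 0.0736 CPM per kb were lowest there and overlapped. In shCtrl, shPDK1#1 and shPDK1#2 the order began IER3, IER2, EGR1, SRF, NR4A1, with no overlap between neighbours, and ended with EGR2 and then NR4A3. Between them, NR4A2 stood above EGR3 in shCtrl (5.43 and 4.98, overlapping) and in shPDK1#1 (6.66 and 5.29, apart), and the libraries of both overlapped in shPDK1#2 (5.89 and 5.95 CPM per kb). EGR1 lay at 49.6 ± 1.12 CPM per kb in shCtrl and 32.0 ± 2.95 in shPDK1#2, where SRF, next in order, lay at 25.5 ± 1.22.

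The first comparison asks how OSCs differ from non-OSCs. Of the 9 members, 7 were higher in OSCs, 1 was lower and 1 did not pass the threshold, an adjusted p under 0.05 in edgeR's quasi-likelihood test. Of all 14288 genes tested, 32.4% were higher and 31.5% lower by the same rule. The median log2 fold change of the 9 members was 1.75, and that of all genes tested was -0.01. In bulk RNA, a change in the share of cells that transcribe a gene and a change in the RNA of each cell cannot be told apart.

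**Figure D2:**
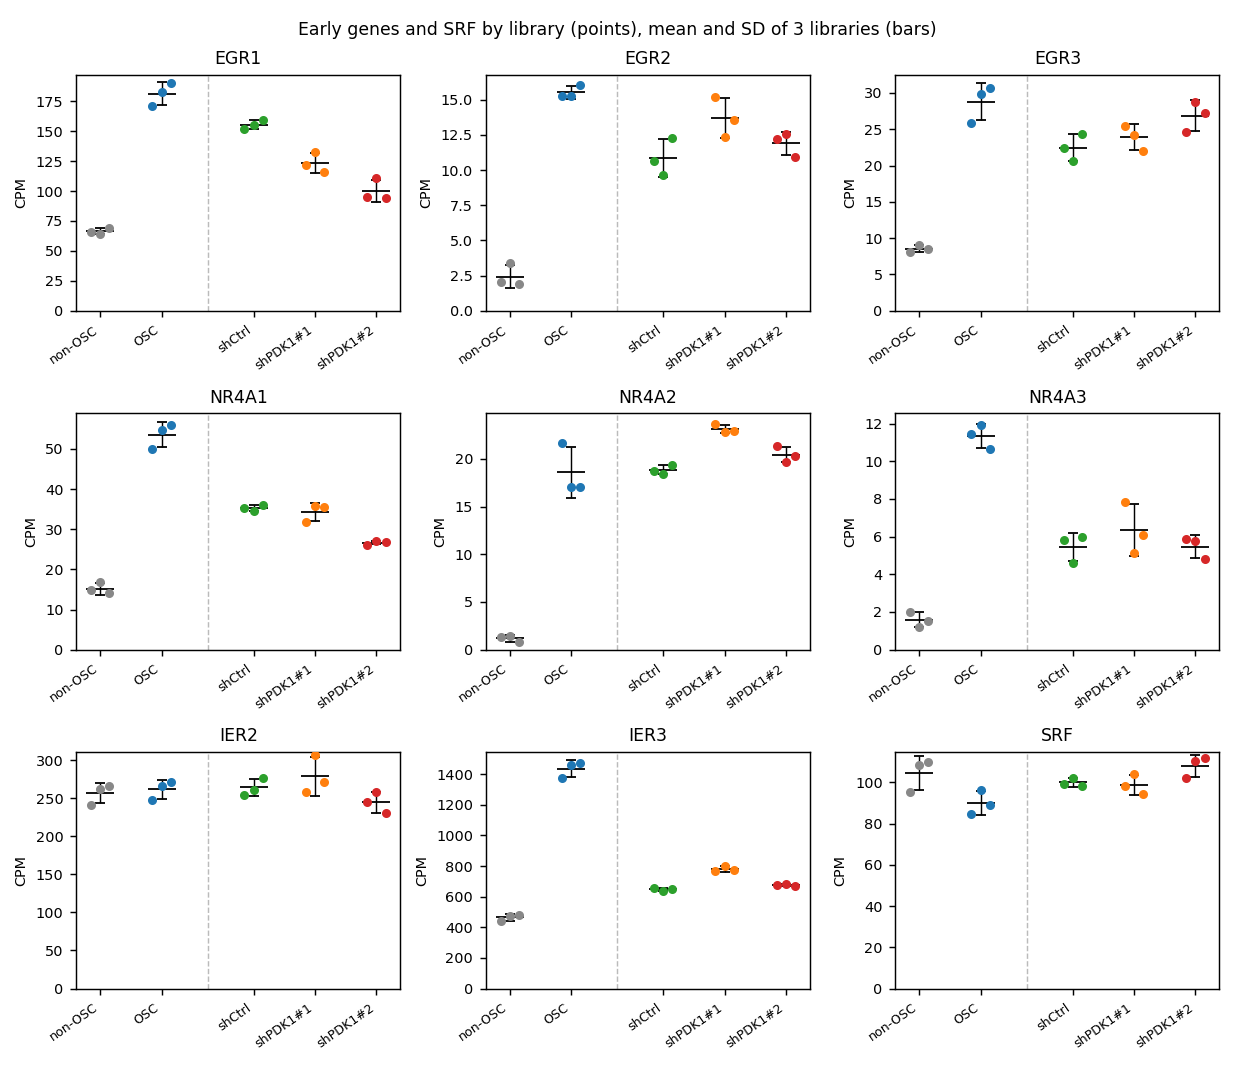
CPM of each member in every library (points), with the mean and SD of 3 libraries (bars). The dashed line parts the tables, which were normalised separately. OSC libraries of EGR1, EGR2, EGR3, NR4A1, NR4A2, NR4A3 and IER3 all lie above the non-OSC libraries, and EGR1 and NR4A1 are lowest in shPDK1#2 among the hairpin libraries.

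NR4A2, a nuclear receptor known for its part in dopamine neurons, showed the largest ratio of the members. Its level was 1.35, 1.42 and 0.771 CPM in the 3 non-OSC libraries, from 14, 13 and 7 counts, and 21.7, 17.1 and 17.0 CPM in the OSC libraries. All OSC libraries stood above all non-OSC libraries. The log2 fold change was 3.95 (SE 0.22, adjusted p = 1.14e-12, edgeR's quasi-likelihood test), a 15.7-fold ratio of means.

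NR4A3, the third receptor of the family, stood at 2.03, 1.20 and 1.54 CPM in non-OSCs and at 11.5, 11.9 and 10.6 in OSCs. The groups did not overlap, and the non-OSC values rest on 11 to 21 counts. Its log2 fold change was 2.81 (SE 0.23, adjusted p = 4.74e-10, edgeR). NR4A1, the first receptor of the family, which acts in T cell selection and cell death, was at 14.8, 16.7 and 13.99 CPM in non-OSCs and at 50.0, 54.6 and 56.1 in OSCs. Every OSC library exceeded every non-OSC library, with a log2 fold change of 1.82 (SE 0.10, adjusted p = 5.14e-13, edgeR). The 3 receptors thus moved the same way, with the smallest step in NR4A1, which held the highest non-OSC level per kb of the family.

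Among the EGR genes, EGR2, which is needed for hindbrain patterning and myelination, changed most. Its values were 2.03, 3.39 and 1.87 CPM in non-OSCs and 15.3, 15.3 and 16.1 in OSCs. The non-OSC libraries were all low, at 17 to 31 counts, and lay apart from the OSC libraries. EGR2 had a log2 fold change of 2.68 (SE 0.20, adjusted p = 1.63e-10, edgeR). EGR3, a relative with overlapping target sites, was at 8.10, 9.08 and 8.48 CPM in non-OSCs and 25.9, 29.8 and 30.7 in OSCs. All OSC libraries of EGR3 were higher, and the log2 fold change was 1.75 (SE 0.12, adjusted p = 4.76e-11, edgeR).

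EGR1, the family's most abundant member and a classic growth factor response gene, rose from 65.7, 64.4 and 69.4 CPM in non-OSCs to 171, 183 and 190.3 in OSCs. The groups lay well apart. EGR1 had a log2 fold change of 1.45 (SE 0.06, 95% interval 1.32 to 1.57, adjusted p = 7.78e-15, edgeR).

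The IER genes parted. IER3 was at 441, 474 and 478 CPM in non-OSCs and at 1374, 1460.4 and 1474 in OSCs, with no overlap. Its log2 fold change was 1.63 (SE 0.04, adjusted p = 2.63e-18, edgeR). IER2, a nuclear protein of the early response, was at 241, 262 and 266 CPM in non-OSCs and 248, 266 and 272 in OSCs. These libraries overlapped, and the log2 fold change was 0.03 with a 95% interval of -0.08 to 0.14 (adjusted p = 0.620, edgeR). The sign of the IER2 value turned with upper quartile factors, to -0.01. Reads of IER2 and IER3 could include antisense transcripts, because 52.2% and 38.9% of their exon bases lie opposite exons of other genes and the strand setting of the counting is not given in the sources used here. Each of those other genes held 20 counts or fewer for IER2 and 42 or fewer for IER3 in any library.

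SRF, which binds CArG boxes as a dimer, stood at 95.2, 109 and 110.0 CPM in non-OSCs and at 84.8, 96.3 and 89.0 in OSCs. The highest OSC library lay above the lowest non-OSC library, so the groups overlapped. SRF had a log2 fold change of -0.21 (SE 0.07, adjusted p = 0.0104, edgeR). The call was lost without non-OSC replicate 3 (-0.18, adjusted p = 0.0580, edgeR) and without OSC replicate 1 (-0.17, adjusted p = 0.0626, edgeR).

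**Figure D3:**
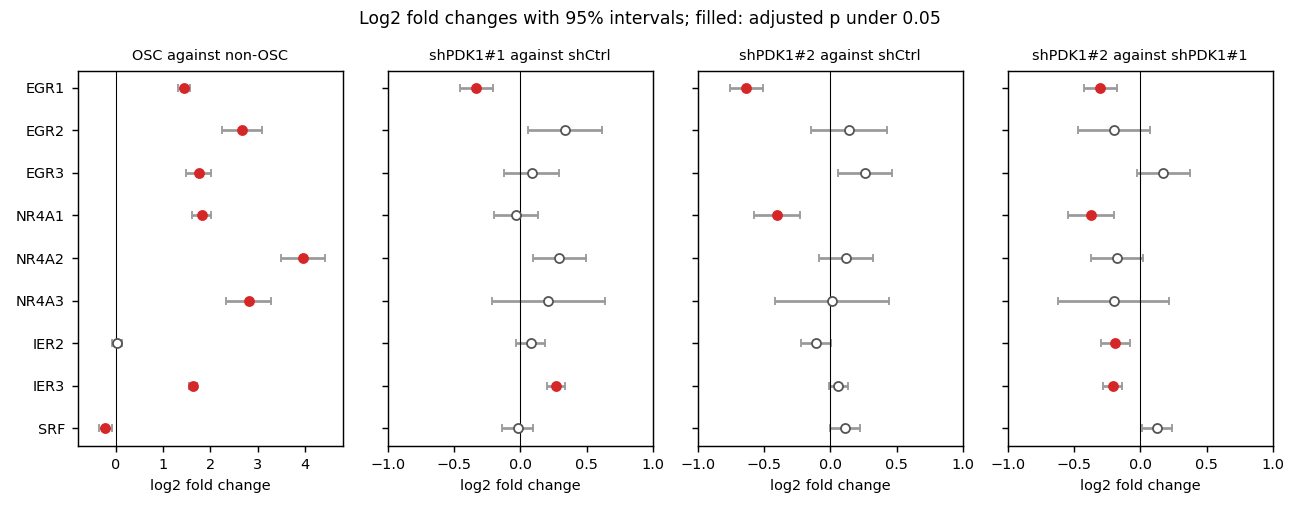
Log2 fold changes of the 9 members in 4 comparisons, with 95% intervals from edgeR's quasi-likelihood fit. Filled points passed an adjusted p of 0.05, and the first panel has a wider horizontal axis than the other 3. The steps between OSCs and non-OSCs reach 3.95 (NR4A2), while those of the hairpins lie between -0.63 (EGR1, shPDK1#2) and 0.34 (EGR2, shPDK1#1).

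Other early genes and regulators were counted in lists. The counts of each list in OSCs are read beside the shares of all genes tested, 32.4% higher and 31.5% lower. Among 22 other early genes, 18 were higher in OSCs and 2 lower, with a median log2 fold change of 1.12. The largest steps were those of the mRNA decay factor ZFP36 (3.08), JUNB (2.25), KLF4 (2.21) and the small GTPase gene GEM (2.19). Of 8 AP-1 genes, whose products pair to bind AP-1 sites, 7 were higher and FOSL1 was lower (-0.92), with a median of 2.81. FOSB (4.92), ATF3 (4.37), FOS (3.61) and JUND (3.36) led that list. JUNB stands in both lists. The members' median of 1.75 lay between the medians of these lists.

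The partners and feedback factors of the members were counted next. NAB1 (0.40) and NAB2 (0.44), corepressors that bind EGR proteins, were both higher in OSCs, and EGR4 was not tested. RXRA (0.26) and RXRB (0.26), which pair with NR4A1 and NR4A2, were higher as well. IER5L, a relative of IER2, was higher in edgeR (0.51) but not by DESeq2 (adjusted p = 0.0638), and IER5 did not pass the threshold (0.08, adjusted p = 0.399, edgeR). Of 5 tested SRF cofactors, MRTFA (0.43) and ELK1 (0.30) were higher, beside 32.4% of all genes tested.

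Of 23 genes from the EGF and FGF receptors to the ERK kinases and their RSK and MSK targets, 11 were higher in OSCs and 5 lower, with a median of 0.18. FGFR3 (1.39), RPS6KA3 (1.14) and SOS2 (0.91) rose, and RPS6KA2 (-0.68) fell. Of 12 CREB and MEF2 regulators, 7 were higher and 2 lower (median 0.27), led by MEF2A (1.29), CRTC1 (0.84), MEF2D (0.48) and, downwards, ATF1 (-0.62). Of all genes tested, 32.4% were higher and 31.5% lower, and the difference of these lists from those shares was not tested.

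Of the listed targets of SRF with its MRTF cofactors, 15 were tested. They are mostly cytoskeletal genes, but CCN1 and CCN2 encode secreted proteins. In OSCs, 10 were lower and 3 higher, with a median log2 fold change of -0.54. CCN2 (-3.71), TAGLN (-1.77) and CCN1 (-1.60) were lower, and the smooth muscle actin gene ACTA2 (2.31) was higher. Exons of other genes lie opposite 36.0% of the ACTA2 exon bases and share 7.13% on its own strand. The ACTA2 value is therefore uncertain. TAGLN shares 35.6% of its 75-base stretches with another gene and held 16 to 24 counts per OSC library, so its value is uncertain. CCN1 is also counted among the other early genes.

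Genes that respond to heat and handling were read beside the members. Of 10, 6 were lower and 4 higher in OSCs, and their summed level was 4098 to 4119 CPM in OSCs against 6972 to 7391 in non-OSCs. HSPD1 (-1.12), HSPE1 (-1.07) and HSP90AA1 (-0.91) were lower, while HSPA1A (0.99) was higher. HSPA1A shares 71.6% of its 75-base stretches with other genes, so its value is uncertain. Whether handling had a part in the members' levels was not tested.

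The hairpin comparisons ask which genes differ in spheroids with a PDK1 hairpin, which lowered PDK1 RNA in part. Effects of a hairpin on other genes than PDK1 were not tested. PDK1 itself was at 46.7, 44.7 and 44.4 CPM in shCtrl, at 29.0, 27.8 and 27.3 in shPDK1#1 and at 18.3, 21.5 and 19.6 in shPDK1#2. The groups did not overlap. PDK1 stood at 62.0% of shCtrl with shPDK1#1 and at 43.7% with shPDK1#2, and both differences passed the test (adjusted p = 7.04e-06 and 5.68e-11, edgeR). The 2 hairpins were compared with the same 3 shCtrl libraries, so their values are given side by side and no agreement between them is read.

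With shPDK1#1, 1 member was higher (IER3), 1 was lower (EGR1) and 7 did not pass the threshold. Of all 14597 genes tested, 1.62% were higher and 1.44% lower with shPDK1#1. The members' median log2 fold change was 0.09, and that of all genes tested 0.00.

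With shPDK1#2, EGR1 and NR4A1 were lower and 0 members were higher (1 at an unadjusted p under 0.05 in edgeR, and 0 by DESeq2). Of all genes tested, 11.9% were higher and 14.2% lower with shPDK1#2, so that 45.6% of the genes called were higher. With upper quartile factors that share was 55.4%. The members' median was 0.06, against 0.01 for all genes tested. Directly between the hairpins, 4 members were lower with shPDK1#2 (NR4A1, EGR1, IER3 and IER2) and 0 were higher (1 at an unadjusted p under 0.05 in edgeR, and 0 by DESeq2). Of all genes tested, 6.47% were higher and 9.78% lower with shPDK1#2 than with shPDK1#1, so that 39.8% of the genes called were higher. With upper quartile factors that share was 54.7%.

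EGR1 was the 1 member that passed the test with each hairpin, both against the same shCtrl libraries, and it was lower each time. Its level was 152, 155 and 159 CPM in shCtrl, 122, 133 and 116 in shPDK1#1 and 95.4, 111 and 94.4 in shPDK1#2. Each group lay apart from the others, in the order shCtrl, shPDK1#1, shPDK1#2. The log2 fold change was -0.33 with shPDK1#1 (SE 0.06, adjusted p = 0.00136, edgeR) and -0.63 with shPDK1#2 (SE 0.06, adjusted p = 9.42e-09, edgeR). The direct difference of shPDK1#2 from shPDK1#1 was -0.30 (SE 0.06, adjusted p = 9.03e-04, edgeR).

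NR4A1 was at 35.3, 34.4 and 36.0 CPM in shCtrl, 31.8, 35.9 and 35.5 in shPDK1#1 and 26.2, 27.0 and 26.9 in shPDK1#2. The shPDK1#2 libraries were below all others, and the shPDK1#1 libraries overlapped with shCtrl. NR4A1 had a log2 fold change with shPDK1#2 of -0.40 (SE 0.08, adjusted p = 6.25e-04, edgeR). With shPDK1#1 it was -0.03, with a 95% interval of -0.20 to 0.14 (adjusted p = 0.922, edgeR), and its sign turned when shPDK1#1 replicate 1 was left out (0.02). The direct difference between the hairpins was -0.37 (SE 0.08, adjusted p = 0.00225, edgeR). Exons of the antisense gene NR4A1AS lie opposite 10.3% of the NR4A1 exon bases, and that gene held 16 counts at most in a library.

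IER3 was at 655, 638 and 653 CPM in shCtrl, 766, 803 and 776 in shPDK1#1 and 675, 684 and 671 in shPDK1#2. The shPDK1#1 libraries were highest and lay apart from both other groups. The log2 fold change with shPDK1#1 was 0.27 (SE 0.03, adjusted p = 1.24e-05, edgeR). With shPDK1#2 it was 0.06 (95% interval -0.01 to 0.13, adjusted p = 0.194, edgeR), which passed only with upper quartile factors among the alternatives (0.09, adjusted p = 0.0426, edgeR). The direct difference of shPDK1#2 from shPDK1#1 was -0.21 (SE 0.03, adjusted p = 5.94e-05, edgeR).

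IER2 did not pass the threshold against shCtrl with either hairpin. It was at 255, 261 and 277 CPM in shCtrl, 258, 307 and 272 in shPDK1#1 and 245, 259 and 231 in shPDK1#2. All 3 groups overlapped with one another. The log2 fold changes of 0.08 and -0.11 had adjusted p of 0.561 and 0.148 (edgeR). The direct difference between the hairpins passed (-0.19, SE 0.05, adjusted p = 0.0165, edgeR). It did not pass with upper quartile factors (-0.15, adjusted p = 0.0559, edgeR) or when shPDK1#1 replicate 2 (-0.11, adjusted p = 0.112, edgeR) or shPDK1#2 replicate 3 (-0.15, adjusted p = 0.113, edgeR) was left out.

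The remaining members, among them most of those with the largest steps between OSCs and non-OSCs, did not pass the test with either hairpin. NR4A2 was at 18.7, 18.5 and 19.4 CPM in shCtrl, 23.6, 22.8 and 23.0 in shPDK1#1 and 21.3, 19.7 and 20.3 in shPDK1#2. The hairpin libraries lay above shCtrl in both cases, but the log2 fold changes of 0.29 (95% interval 0.10 to 0.49) and 0.12 (-0.08 to 0.32) had adjusted p of 0.106 and 0.411 in edgeR.

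EGR2 was at 10.6, 9.64 and 12.3 CPM in shCtrl, 15.2, 12.4 and 13.6 in shPDK1#1 and 12.2, 12.5 and 10.9 in shPDK1#2. Its shPDK1#1 libraries lay just above those of shCtrl, and its shPDK1#2 libraries overlapped with them. The log2 fold changes were 0.34 (95% interval 0.06 to 0.62, adjusted p = 0.227, edgeR) and 0.14 (-0.15 to 0.42, adjusted p = 0.508, edgeR).

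EGR3 was at 22.4, 20.7 and 24.4 CPM in shCtrl, 25.5, 24.2 and 22.0 in shPDK1#1 and 24.6, 28.8 and 27.2 in shPDK1#2. The shPDK1#2 libraries lay above the shCtrl libraries. The log2 fold change of 0.26 with shPDK1#2 missed the threshold (adjusted p = 0.0535, edgeR). It passed with upper quartile factors (0.29), with a minimum of 10 counts in every library (0.26), without shCtrl replicate 3 (0.32) and without shPDK1#2 replicate 1 (0.32). With shPDK1#1 it was 0.09 (95% interval -0.12 to 0.30), and those libraries overlapped with shCtrl.

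NR4A3, on 46 to 68 counts per library, was at 5.81, 4.62 and 5.96 CPM in shCtrl, 7.84, 5.13 and 6.07 in shPDK1#1 and 5.87, 5.76 and 4.79 in shPDK1#2. The groups overlapped. The 95% intervals of the log2 fold change ran from -0.21 to 0.64 with shPDK1#1 and from -0.42 to 0.44 with shPDK1#2, the widest of the 9 members, so smaller steps were not detectable at this depth.

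SRF was at 99.3, 102 and 98.3 CPM in shCtrl, 98.0, 104 and 94.3 in shPDK1#1 and 102, 110.1 and 112 in shPDK1#2. These groups overlapped as well. The log2 fold changes were -0.02 (95% interval -0.14 to 0.10) and 0.11 (-0.01 to 0.22). Directly between the hairpins SRF differed by 0.13 (adjusted p = 0.118, edgeR), which passed with upper quartile factors (0.16, adjusted p = 0.0449, edgeR) and without shPDK1#1 replicate 2 (0.17, adjusted p = 0.0475, edgeR).

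Of the 22 other early genes, 14 were lower and 0 higher with shPDK1#2 (1 at an unadjusted p under 0.05 in edgeR, and 0 by DESeq2), with a median log2 fold change of -0.51. KLF2 (-1.64), GEM (-1.39), TRIB1 (-0.86) and JUNB (-0.84) fell most. With shPDK1#1, 6 were lower and KLF10 was higher (0.29), with a median of -0.10. KLF2 (-0.46), GEM (-0.45), CCN1 (-0.33) and KLF6 (-0.33) led there. Directly between the hairpins, 11 were lower and CCN1 was higher (0.23) with shPDK1#2, with a median of -0.45 for the list. DESeq2 did not call CCN1 there (adjusted p = 0.0666). Of all genes tested, 14.2% were lower with shPDK1#2, 1.44% with shPDK1#1 and 9.78% directly between the hairpins.

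Of the 8 AP-1 genes, 7 were lower with shPDK1#2 and 5 with shPDK1#1. None of them was higher with either hairpin (0 at an unadjusted p under 0.05 in edgeR and 0 by DESeq2), and the medians were -1.02 and -0.31. ATF3 stood at -0.49 with shPDK1#1 and -1.87 with shPDK1#2, FOSB at -0.44 and -1.53, and FOS at -0.33 and -1.30. JUN stood at -0.32 and -0.91, and JUND at -0.30 and -1.12, in the same order. Directly between the hairpins 7 of the 8 were lower with shPDK1#2, with a median of -0.75. The shares of all genes lower were 14.2% with shPDK1#2, 1.44% with shPDK1#1 and 9.78% between the hairpins.

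**Figure D4:**
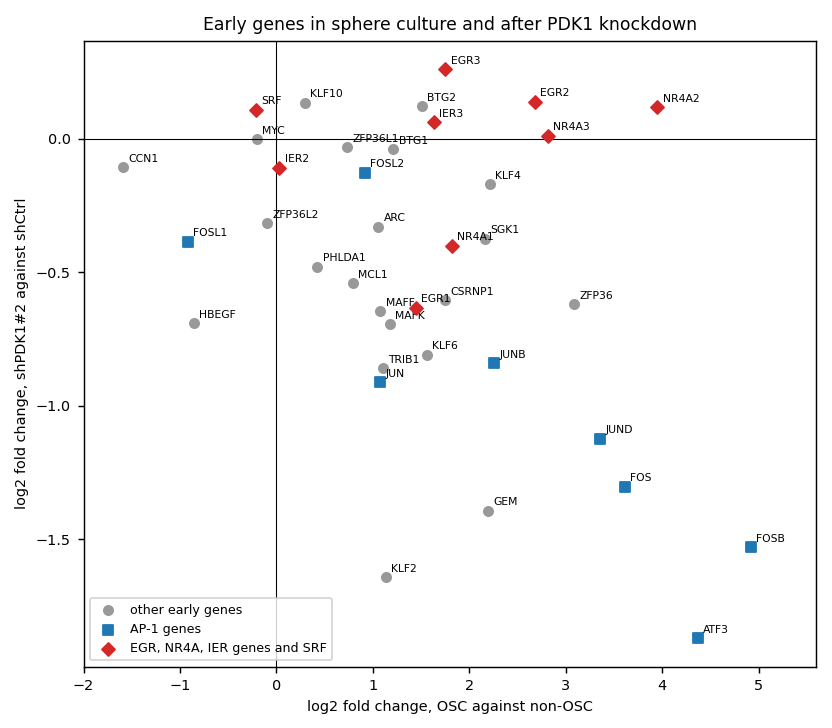
Log2 fold changes of single genes in OSCs against non-OSCs (horizontal) and in shPDK1#2 against shCtrl (vertical), which share no library. Diamonds are the 9 members, squares 8 AP-1 genes and circles 21 further early genes. EGR1 and NR4A1 lie lower right, as do JUN, JUNB, JUND, FOS, FOSB and ATF3, which lie further down. EGR2, EGR3, NR4A2, NR4A3 and IER3 lie at or above the zero line of the hairpin axis. NR4A3 kept its sign there in 9 of 13 alternatives. It was -0.00061 with library size alone and -0.10 without shCtrl replicate 2.

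The routes upstream of the members were counted as well. Of all genes tested, 1.62% were higher and 1.44% lower with shPDK1#1, and 11.9% and 14.2% with shPDK1#2. Directly between the hairpins, 6.47% of all genes were higher and 9.78% lower with shPDK1#2. In the receptor to ERK list, BRAF was the 1 gene of 23 that was lower with shPDK1#1 (-0.49), and 0 were higher (1 at an unadjusted p under 0.05 in edgeR, and 0 by DESeq2). With shPDK1#2, 6 were lower and 2 higher, with BRAF (-0.68) down and the receptor genes FGFR2 (0.50) and FGFR4 (0.41) up. Directly between the hairpins 2 were higher (FGFR2 and FGFR4) and 2 lower, among them MAP2K1. The list's medians were -0.06, -0.10 and -0.01 in these comparisons.

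None of the 12 CREB and MEF2 regulators passed with shPDK1#1 (0 at an unadjusted p under 0.05 in edgeR, and 0 by DESeq2). Over all genes tested 1.62% were higher and 1.44% lower there, so 0 of 12 is near that share. With shPDK1#2, 4 were lower, namely CREM (-0.37), CREB1 (-0.25), EP300 (-0.21) and MEF2D (-0.20), of which DESeq2 called 2. Over all genes tested, 14.2% were lower with shPDK1#2. Of the 5 SRF cofactors tested, MRTFA (-0.49) and ELK3 (-0.16) were lower with shPDK1#2, and 0 passed with shPDK1#1 (1 at an unadjusted p under 0.05 in edgeR, and 0 by DESeq2). Of the partners, RXRA (-0.23) and IER5 (-0.34) were lower with shPDK1#2, and NAB1 (-0.08) and NAB2 (0.10) did not pass.

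Of the MRTF-SRF targets, 5 of 15 were higher and 2 lower with shPDK1#2. Over all genes tested, 11.9% were higher and 14.2% lower there. MYL9 (0.84) and CNN2 (0.71) were up, and FHL2 (-0.54) and TAGLN2 (-0.42) down. With shPDK1#1, CNN2 (0.38) and VCL (0.18) were higher and CCN1 lower. The 10 heat and handling genes summed to 5593 to 5713 CPM in shCtrl, 5784 to 6045 in shPDK1#1 and 6241 to 6375 in shPDK1#2. Of these, 3 were higher and 1 lower with shPDK1#2, with HSPA8 (0.23) up and HSPA1A (-0.25) down, and HSPA1B was higher with shPDK1#1 (0.36). HSPA1B shares 73.3% of its 75-base stretches with other genes, so its value is uncertain too. Their part in the members' values was not tested.

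Across libraries, the members fell into patterns that differed between the tables. In log2 CPM centred on each table's mean, EGR1 and NR4A1 correlated at r = 0.960 over all 15 libraries and at r = 0.845 over the 9 hairpin libraries. EGR1 and EGR2 had r = 0.854 over the 15 but -0.285 over the 9. NR4A2 and IER3 had r = 0.979 and 0.922, and EGR2 and NR4A3 had 0.948 and 0.843. The first value of each pair includes the gap between OSCs and non-OSCs, and both values include the gaps between the hairpin conditions. The libraries also share their depth and preparation, so these values are descriptions.

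Among 9844 genes that are no members and had a mean of 10 CPM or more in both tables, those most like EGR1 over the 15 libraries were RALGDS (Pearson r = 0.995), KLF13 (0.989) and HSPG2 (0.988). For NR4A1 they were MXD4 (0.996), the NF-kB inhibitor gene NFKBIA (0.995) and CD70 (0.993). For IER3 they were ANKH (0.997), PPP1R3B (0.994) and C2CD4A (0.994). For SRF, r was 0.904 for ARHGDIA, 0.898 for ATP13A1 and 0.898 for TRMT1. Over the 9 hairpin libraries alone RALGDS had r = 0.993 with EGR1, the highest of these genes, and NFKBIA r = 0.968 with NR4A1. ARHGDIA had r = 0.761 with SRF, and TRMT1 had r = 0.680 with SRF, the lowest. These genes were picked by r over 15 libraries that include the 9, so the values over the 9 are no separate check.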

How the data were processed

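RNA was measured in 15 libraries of the 143B cell line, 3 for each of 5 conditions, grouped by their sample titles. According to the submitters' processing notes, Trimmomatic 0.39 and FastQC 0.12.1 served for trimming and quality control, STAR 2.7.11a for alignment against GRCh38.p14, and RSEM 1.3.3 for quantification of the paired-end NovaSeq reads. The deposited values are RSEM's expected counts per gene, which the authors did not normalise. RSEM shares a read that fits several genes between them, so 6.85% and 6.92% of the values in the 2 tables were not whole. Annotation and strand setting are not given in the sources used here. The kit was NEBNext Ultra, and 0 columns of values were left unmapped.

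Expected counts were rounded to whole numbers. In R 4.3.3, edgeR 4.0.16 normalised each table by TMM (factors 0.981 to 1.02), kept genes by filterByExpr (14288 and 14597) and ran the quasi-likelihood test with Benjamini-Hochberg adjustment at 0.05 over all genes tested. The hairpin libraries shared 1 fit of 9 libraries. The tables were tested apart. The biological coefficient of variation was 0.0548 and 0.0482, and in no pair of replicates were the counts as close as sampling alone would make them (chi-square statistics of 1.96 to 3.56 for each degree of freedom), so no library was counted as a duplicate. The scripts were tested on simulated data. DESeq2 1.42.0 and the alternatives named at the end were run as well. Symbols, lengths and overlaps came from GENCODE 44, in which all 62700 identifiers were found, and upstream sequences from RefSeq. CPM per kb divides CPM by the length of the canonical transcript, and log2 CPM for correlations used a prior count of 2.

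The members, the gene lists and the tests were chosen with earlier results of these data known. The named genes are the members, PDK1, the 3 genes most like EGR1, NR4A1, IER3 and SRF, and up to 4 genes with the largest change past the threshold per list. FOSL1 in OSCs against non-OSCs, KLF10, CCN1 between the hairpins, and genes given as not passing were named after their values were seen. In the receptor to ERK list, 1 gene that this rule picks is not reported here.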

Additional observations from a re-analysis of the deposited data

Results flagged for a closer look

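The responses to the hairpins differed for 4 members in the direct test of shPDK1#2 against shPDK1#1 (edgeR's quasi-likelihood test). The log2 differences were -0.30 for EGR1, -0.37 for NR4A1, -0.19 for IER2 and -0.21 for IER3, all lower with shPDK1#2. For EGR1, NR4A1 and IER3 the 3 libraries of shPDK1#2 all lay below the 3 of shPDK1#1, and for IER2 they overlapped. Groups of 3 libraries are too small for a search for single outlying libraries.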

How the results depend on the processing

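The alternatives were DESeq2, 2 other scalings, 2 other filters, a replicate block, a fit of only the compared groups and each library left out. Over them, EGR1 kept its direction and side of the threshold in all 4 comparisons. So did NR4A1 and IER3 in OSCs and between the hairpins, NR4A1 with shPDK1#2 and IER3 with shPDK1#1. With upper quartile factors, 4 members rather than 2 differed with shPDK1#2, as EGR3 and IER3 were then higher. IER2 in OSCs changed sign with upper quartile factors (-0.012) and ranged from -0.015 to 0.070 with libraries left out. With single libraries left out, NR4A1 with shPDK1#1 ranged from -0.059 to 0.018, SRF with shPDK1#1 from -0.059 to 0.012 and NR4A3 with shPDK1#2 from -0.10 to 0.10, and with library size alone the last was -0.00061. Direction and side of the threshold were kept by 103 of 107 values of the members in OSCs against non-OSCs, 114 of 116 with shPDK1#1, 108 of 117 with shPDK1#2 and 112 of 117 between the hairpins. None of the values that changed sign was called in any setting, and the cause was not tested. The number of all genes differing with shPDK1#1, 446, ranged from 245 to 508 with libraries left out. It was lowest without shPDK1#1 replicate 3 (245), and was 270 and 281 without shCtrl replicate 1 and 2. Deviations of same-numbered libraries correlated over genes at 0.09 to 0.19 in OSCs against non-OSCs, all positive. Among the hairpin libraries these correlations were -0.06 to 0.29. The main test did not take the numbers as pairs, and the replicate block was run as the alternative. With the replicate block, 8, 2, 2 and 4 members and 9423, 507, 3944 and 2512 genes differed in the 4 comparisons, and no member's call changed. NR4A2 in OSCs had no test under the stricter filter, a minimum of 10 counts per library, and DESeq2 gave no adjusted p for NR4A3 with shPDK1#1. Depth limited NR4A2, NR4A3 and EGR2 most, which held 7 to 31 counts per non-OSC library.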
